A study of Mus musculus with 4 samples.

Results

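Chemokine and homing receptors steer B-cell progeny between bone marrow, blood and lymphoid organs. The group described here comprises 10 receptor genes, *Cxcr4*, *Cxcr5*, *Cxcr3*, *Ccr2*, *Ccr6*, *Ccr7*, *Ccr9*, *S1pr1*, *S1pr4* and *Gpr183*, given as a list and found by symbol among 55359 Ensembl genes. Bulk RNAseq was performed on T8 cells, as the sample titles name them. T8 is a leukemia line that the authors established from a single primary B-cell progenitor tumor of an *Irf4*-/- mouse. It carries an acquired *Jak3* mutation. The cells had been passaged on irradiated ST2 stromal cells with IL-7 before they grew without stroma. Viable cells were taken 24 h after transduction with a retrovirus coding for GFP alone (EV-RV) or for GFP plus IRF4 (IRF4-RV). There were 2 libraries per group, described as biological replicates by the submitters, and both groups share the *Irf4*-/- genotype. Whether replicates came from separate transductions is not given in the sources used here, so that p-values measure the spread between these libraries. Whether GFP+ cells were sorted before RNA extraction is not given in the sources used here, so that the values are averages over all cells taken. In such bulk samples, fewer cells that express a gene and less RNA per cell cannot be told apart.

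All 10 members are receptors with 7 transmembrane helices that couple to G proteins, mostly of the Gαi class, and direct cells along gradients of chemokines or lipids. CXCR4 binds CXCL12 from marrow stroma and keeps B progenitors in the marrow niche. CCR7 binds CCL19 and CCL21 and brings lymphocytes into lymph nodes, and CXCR5 binds CXCL13 and brings B cells into follicles. S1PR1 reads sphingosine-1-phosphate (S1P) in blood and lymph and lets lymphocytes leave tissues, S1PR4 is an S1P receptor of hematopoietic cells, and GPR183 follows oxysterols. The remaining receptors are better known from other cells or later stages: CCR2 (ligand CCL2) from monocytes, CCR6 (ligand CCL20) from mature B cells and T cells, CCR9 (ligand CCL25) from thymus and gut, and CXCR3 (ligands CXCL9, CXCL10 and CXCL11) from activated T cells.

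The libraries held 31230223 to 37817752 counts, and a floor of 3 counts, below which a level was not read, equals 0.0824 to 0.0952 CPM. CPM are counts scaled to a common library size with TMM factors. *Irf4* was counted 8070 and 7600 times in EV-RV cells versus 95578 and 90693 times in IRF4-RV cells, a log2 fold change of 3.46 (edgeR adjusted p = 1.14e-06); counts are per gene and do not separate the disrupted from the remaining sequence. The B-lineage markers *Cd79a*, *Cd79b* and *Pax5* had 6670 to 33036 counts in every library, whereas *Rag1* had 0 or 1. Of 10 B-lineage markers tested, 2 were higher (*Cd22* and *Ptprc*) and 3 lower (*Vpreb1*, *Igll1* and *Il7r*) in IRF4-RV cells. The fall of *Il7r* was small, with a log2 fold change of -0.29 (edgeR adjusted p = 0.0686). *Il7r* was not called at an FDR of 0.05, and its change ranged from -0.41 to -0.19 with each library left out. The 10 T and NK cell markers summed to 40 to 59 counts, most of them from *Klrb1c*, with *Cd8a*, *Cd8b1* and *Ncr1* at 0. The 9 macrophage and monocyte markers summed to 24 and 25 counts in EV-RV cells and to 32 and 41 in IRF4-RV cells, with *Adgre1* and *Mertk* at 0. The 9 granulocyte markers summed to 40 counts in each EV-RV library and to 96 and 93 in IRF4-RV cells, mostly from *Ly6g*, with *S100a8*, *S100a9* and *Camp* at 0. The 7 dendritic cell markers summed to 52 and 40 against 135 and 150 counts, mostly from *Flt3* in the latter, with *Itgax*, *Siglech* and *Cd209a* at 0. Markers of stromal cells were present and uneven. Their summed level was 42.1 and 78.4 CPM in EV-RV cells, and 42.5 and 189 CPM in IRF4-RV cells, so that IRF4-RV replicate 2 stood apart. Results that move with this library are given below with their values.

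Of the 10 receptors, 7 were expressed highly enough to be tested, and all 7 were differentially expressed between IRF4-RV and EV-RV in edgeR's quasi-likelihood test at an FDR of 0.1. *Ccr7*, *S1pr4*, *Ccr6*, *Cxcr4* and *S1pr1* were higher in IRF4-RV cells, and *Ccr2* and *Cxcr5* were lower. *Ccr6* would not have passed the low-count filter on its EV-RV counts alone, so that its call is not independent of being tested. *Cxcr3*, *Ccr9* and *Gpr183* stayed at 0 to 5 counts in each library. Among the 14637 genes tested in the same fit, 29.7% were called, 16% as higher and 13.7% as lower. The median log2 fold change was 1.0 over the 7 receptors and 0.01 over all genes tested. As the receptors were chosen with earlier results of these data known, this contrast with all genes is no independent test. The groups did not overlap in CPM for any of the 7 receptors, a pattern that 61.3% of all genes tested had. With 4 libraries such separation alone says little, and the size of the change is therefore given with its standard error for each receptor tested. This standard error comes from the edgeR fit, which also draws on the spread of other genes.

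**Figure D1:**
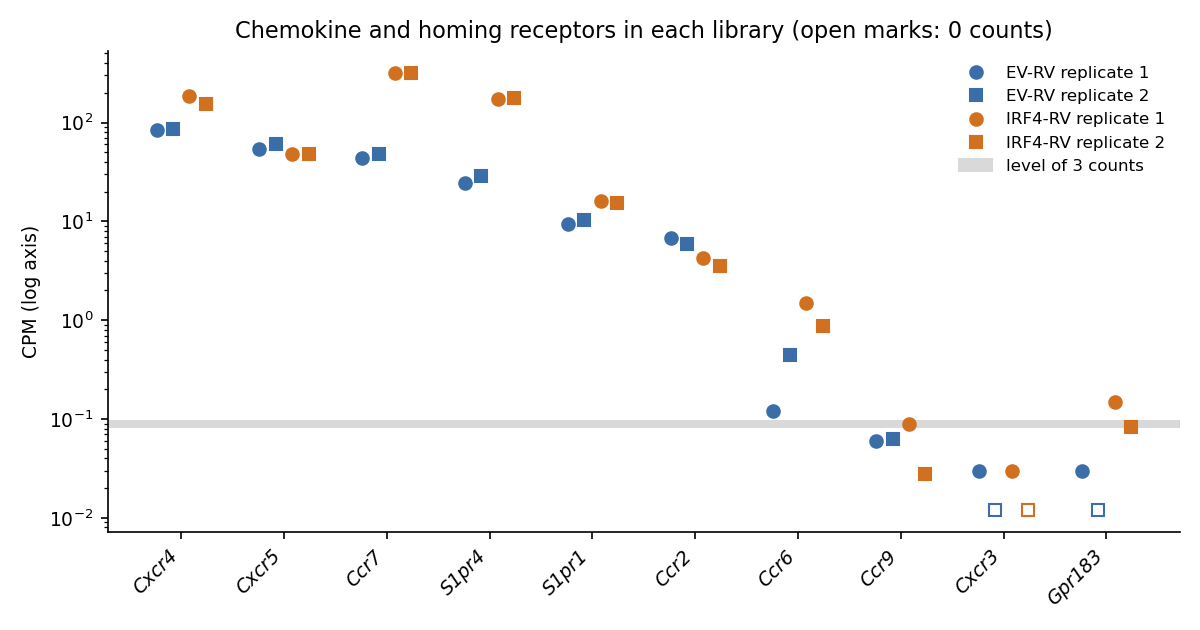
Level of the 10 receptors in each library, in CPM on a log axis, with blue marks for EV-RV and orange marks for IRF4-RV, replicate 1 as circles and replicate 2 as squares, and 0 counts as open marks at the bottom. The grey band marks the level of 3 counts, between 0.0824 and 0.0952 CPM, and *Ccr7* and *S1pr4* show the widest gap between the groups among the abundant receptors.

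*Ccr7* (ENSMUSG00000037944) lies on chromosome 11 (99144196 to 99155077, minus strand; GRCm38, as for all genes here). Its level was 44.2 and 47.8 CPM in the EV-RV libraries and 318 and 320 CPM in the IRF4-RV libraries. Both IRF4-RV libraries lay far above both EV-RV libraries, and the replicates of each group were close. The level rose 6.92-fold, from 46 ± 2.54 to 319 ± 1.28 CPM (SD, n = 2 each). On the log2 scale this change was 2.79 (standard error 0.0804, 95% interval 2.60 to 2.98, edgeR adjusted p = 1.38e-06). In counts these levels were 1476 and 1508 against 10764 and 11637. *Ccr7* is also known from dendritic cells, and of the 7 dendritic cell markers *Flt3* rose with it, from 23 and 14 to 101 and 112 counts (log2 fold change 2.41, edgeR adjusted p = 0.00139). *Zbtb46* had 27 and 24 against 30 and 37 counts and was not called, *Clec9a* had at most 1 and *Ccr9* at most 3, and *Itgax*, *Siglech* and *Cd209a* were at 0 in all libraries. The part of dendritic cells in the level of *Ccr7* was not tested.

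*S1pr4* (ENSMUSG00000044199, chromosome 10, 81497747 to 81500132, minus strand) rose almost as much. Its level was 24.6 and 28.9 CPM in EV-RV cells versus 174 and 176 CPM in IRF4-RV cells, with no overlap. The log2 fold change was 2.71 (standard error 0.0982, 95% interval 2.48 to 2.94, edgeR adjusted p = 2.66e-06), which is 6.55-fold. *Ccr7* and *S1pr4* kept nearly the same ratio to each other, at 2.17 and 2 in EV-RV cells versus 2.21 and 2.19 in IRF4-RV cells when each level is taken per kilobase of exon.

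*Cxcr4* (ENSMUSG00000045382, chromosome 1, 128588199 to 128592293, minus strand), the marrow retention receptor, had the highest level per kilobase of exon of the 10 in EV-RV cells. It was at 83.9 and 85.7 CPM in EV-RV cells versus 187 and 153 CPM in IRF4-RV cells. The IRF4-RV libraries differed more from each other than the EV-RV libraries did, but both were higher. The level rose 2.01-fold, from 84.8 ± 1.3 to 170 ± 24.2 CPM (SD, n = 2 each), with a log2 fold change of 1.0 (standard error 0.104, 95% interval 0.76 to 1.25, edgeR adjusted p = 0.000466).

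*S1pr1* (ENSMUSG00000045092, chromosome 3, 115710433 to 115715072, minus strand), the egress receptor, was at 9.35 and 10.3 CPM in EV-RV cells versus 16.1 and 15.5 CPM in IRF4-RV cells. The groups did not overlap, with 9.81 ± 0.654 and 15.8 ± 0.384 CPM (SD, n = 2 each), and the log2 fold change was 0.69 (standard error 0.112, 95% interval 0.43 to 0.95, edgeR adjusted p = 0.00397). *Ccr7*, *S1pr4*, *Cxcr4* and *S1pr1* were each called in all 11 alternative settings run, including those that leave out 1 library.

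To show the sequence at which transcription of 2 of the rising receptors starts, and of the 1 tested receptor whose window held a motif that IRF4 is known to bind, their promoter windows were read from RefSeq on GRCm38.p6. A window spans 250 bases before to 50 bases after the start site. Windows were found for 7 of the 10 receptors. None was available for *Ccr7*, *Cxcr5* and *S1pr1*, which were therefore not read for motifs. Capitals mark matches, on either strand, to GAAANNGAA, the core of the interferon-stimulated response element, or to GGAANNGAA, the core of the Ets-IRF composite element. The *Cxcr4* window (chr1:128592250-128592549, minus strand) and the *S1pr4* window (chr10:81500088-81500387, minus strand) follow, and then that of *Ccr2* (chr9:124101933-124102232, plus strand).
Cxcr4: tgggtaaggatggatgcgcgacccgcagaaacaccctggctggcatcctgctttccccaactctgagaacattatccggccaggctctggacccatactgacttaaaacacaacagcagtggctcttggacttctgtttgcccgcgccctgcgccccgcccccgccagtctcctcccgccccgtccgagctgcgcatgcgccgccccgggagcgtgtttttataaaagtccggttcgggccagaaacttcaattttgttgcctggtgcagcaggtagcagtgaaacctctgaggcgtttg
S1pr4: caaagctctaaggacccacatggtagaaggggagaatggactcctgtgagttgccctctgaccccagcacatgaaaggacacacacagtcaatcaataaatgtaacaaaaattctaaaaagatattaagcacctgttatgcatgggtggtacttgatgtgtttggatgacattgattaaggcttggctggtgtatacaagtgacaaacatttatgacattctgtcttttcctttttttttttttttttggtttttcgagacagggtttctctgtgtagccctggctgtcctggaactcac
Ccr2: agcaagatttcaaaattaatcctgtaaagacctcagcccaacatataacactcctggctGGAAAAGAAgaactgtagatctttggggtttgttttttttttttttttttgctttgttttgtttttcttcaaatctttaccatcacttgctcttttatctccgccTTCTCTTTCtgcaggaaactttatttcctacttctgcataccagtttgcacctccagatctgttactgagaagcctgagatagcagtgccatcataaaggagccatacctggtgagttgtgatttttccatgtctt

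The *Cxcr4* and *S1pr4* windows held neither core, nor TGANTCA, the AP-1 motif. The *Ccr2* window held GGAANNGAA once on the plus strand, starting at position -191 from the start site, and GAAANNGAA once on the opposite strand, at -86. This start site, taken from RefSeq, lies inside the GENCODE gene, which begins at 124101950. Both matches therefore lie after the annotated gene start, not before it. Of the other windows, that of *Cxcr3* held GGAANNGAA once, and those of *Ccr6*, *Ccr9* and *Gpr183* held none of the 3 motifs. Of all 32851 windows of this length, 8.56% held GAAANNGAA, 8.24% held GGAANNGAA and 7.81% held TGANTCA. These matches describe the letters in the windows, not binding.

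*Ccr2* (ENSMUSG00000049103, chromosome 9, 124101950 to 124113557, plus strand) moved the other way. It was at 6.80 and 5.87 CPM in EV-RV cells versus 4.25 and 3.54 CPM in IRF4-RV cells. Both IRF4-RV libraries were lower, and the log2 fold change was -0.70 (standard error 0.175, 95% interval -1.11 to -0.30, edgeR adjusted p = 0.0246). Without EV-RV replicate 1 it was -0.60 and no longer passed the cutoff (edgeR adjusted p = 0.119). Of the monocyte markers, *Cd68* held most counts, with 21 and 15 against 25 and 29, and *Cd14* had 0 and 5 against 4 and 9. *Csf1r* had 2 and 3 against 0 and 2, and *Itgam* had 0 and 0 against 2 and 1. The part of monocytes in the level of *Ccr2* was not tested.

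*Cxcr5* (ENSMUSG00000047880, chromosome 9, 44511787 to 44561877, minus strand), the follicle receptor, was at 54.5 and 60.4 CPM in EV-RV cells versus 48 and 47.8 CPM in IRF4-RV cells. The groups did not overlap, but the difference was small, with a log2 fold change of -0.26 (standard error 0.0874, 95% interval -0.46 to -0.06, edgeR adjusted p = 0.0696). The call was lost with any of 3 libraries left out, as the edgeR adjusted p was 0.257 without EV-RV replicate 2, 0.184 without IRF4-RV replicate 1 and 0.259 without IRF4-RV replicate 2. *Cxcr5* shares 110 bases of exon with *Bcl9l* on the opposite strand, and whether counting used the strand is not given in the sources used here.

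*Ccr6* (ENSMUSG00000040899, chromosome 17, 8236043 to 8257141, plus strand) was scarce. It was counted 4 and 14 times in EV-RV cells versus 50 and 32 times in IRF4-RV cells. The IRF4-RV libraries were higher, while the EV-RV libraries differed 3.7-fold from each other in CPM. The log2 fold change was 2.06 (standard error 0.604, 95% interval 0.66 to 3.46, edgeR adjusted p = 0.0451), and its interval was the widest of the 7. It was 3.26 without EV-RV replicate 2. It no longer passed the cutoff without EV-RV replicate 1 (1.39, edgeR adjusted p = 0.191) or without IRF4-RV replicate 1 (1.62, edgeR adjusted p = 0.11), so that its size is poorly known.

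The other 3 receptors were at or near the floor. *Cxcr3* (ENSMUSG00000050232, chromosome X, 101731535 to 101734269, minus strand) was counted 1 and 0 times in EV-RV cells versus 1 and 0 times in IRF4-RV cells. *Ccr9* (ENSMUSG00000029530, chromosome 9, 123678439 to 123784330, plus strand) was counted 2 and 2 times in EV-RV cells versus 3 and 1 times in IRF4-RV cells. Neither exceeded 3 counts in any library, so that no expression was detectable at this depth. *Gpr183* (ENSMUSG00000051212, chromosome 14, 121952551 to 121965195, minus strand) was counted 1 and 0 times in EV-RV cells versus 5 and 3 times in IRF4-RV cells. The ratio of its summed counts was 7.39, with an exact 95% interval for counting error alone of 0.99 to 328. When all genes with at least 1 count were tested, the edgeR adjusted p was 0.985 for *Cxcr3*, 0.985 for *Ccr9* and 0.524 for *Gpr183*.

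Levels of different genes were compared as CPM per kilobase of annotated exon, and their order depends on these lengths. In CPM alone, *Cxcr5* was above *Ccr7* in both EV-RV libraries (54.5 and 60.4 against 44.2 and 47.8). In EV-RV cells the order was *Cxcr4* (46.9 ± 0.719), *Ccr7* (23.3 ± 1.28), *Cxcr5* (17.2 ± 1.23), *S1pr4* (11.2 ± 1.27), *S1pr1* (3.22 ± 0.215), *Ccr2* (0.937 ± 0.0979) and *Ccr6* (0.122 ± 0.0988; SD, n = 2 each), and the replicate ranges of these 7 did not overlap between neighbors. In IRF4-RV cells *Ccr7* came first at 161 ± 0.647, followed by *Cxcr4* at 94.1 ± 13.4, *S1pr4* at 73.3 ± 0.841, *Cxcr5* at 14.4 ± 0.0283 and *S1pr1* at 5.18 ± 0.126 (SD, n = 2 each). *Ccr2* and *Ccr6* then overlapped, at 0.524 to 0.629 and 0.379 to 0.636. Within a library the level of *Ccr7* was 0.482 and 0.51 times that of *Cxcr4* in EV-RV cells, and 1.55 and 1.91 times in IRF4-RV cells. The lymph node receptor therefore passed the marrow receptor in both IRF4-RV libraries. Likewise, *S1pr4* was at 3.36 and 3.59 times the level of *S1pr1* in EV-RV cells versus 13.8 and 14.5 times in IRF4-RV cells.

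The same values were also expressed as shares across all 24 chemokine receptor genes, atypical receptors included. *Cxcr4* made up 52.2% and 50.8% of their summed CPM per kilobase in EV-RV cells versus 33.2% and 28.6% in IRF4-RV cells, although its own level rose. *Ccr7* went from 25.2% and 25.9% to 51.5% and 54.5%. *Cxcr5* went from 18.4% and 19.4% to 4.61% and 4.85%, while its own level fell only to 0.834-fold. The summed level itself was 88.9 and 93.4 CPM per kilobase in EV-RV cells versus 312 and 296 in IRF4-RV cells. *Ccr10*, the receptor for CCL27 and CCL28 that is known from plasma cells and skin-homing T cells, took 0.527% and 0.649% in EV-RV cells versus 9.6% and 10.7% in IRF4-RV cells.

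**Figure D2:**
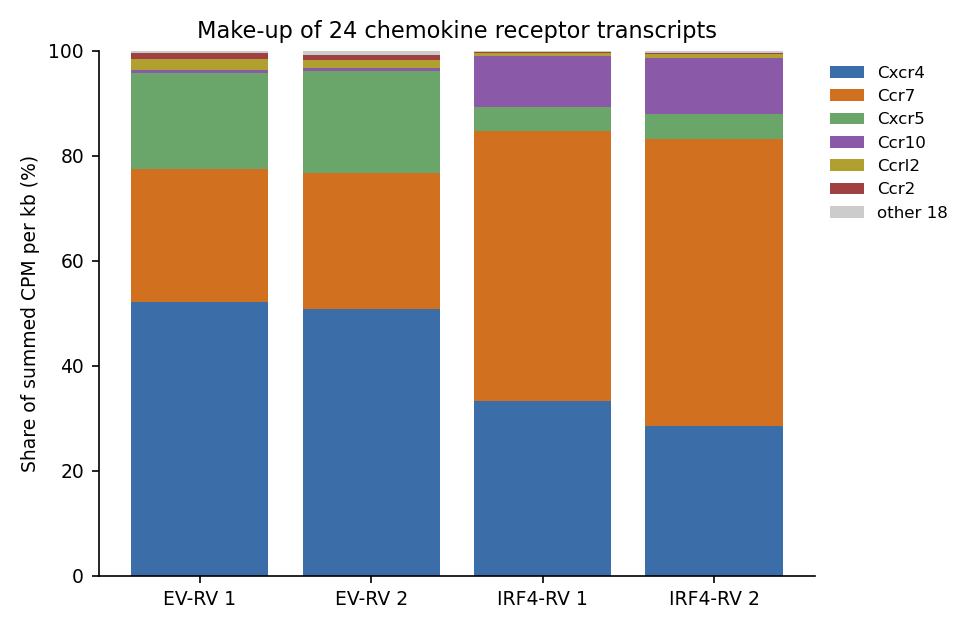
Share of each receptor in the summed CPM per kilobase of 24 chemokine receptor genes, as stacked bars from 0 to 100% for each of the 4 libraries. *Cxcr4* takes 52.2% and 50.8% in the EV-RV libraries, and *Ccr7* takes 51.5% and 54.5% in the IRF4-RV libraries, where *Ccr10* also becomes visible.

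Of the 17 chemokine receptors outside the group, 6 were tested, 3 of which were higher and 1 lower, with a median log2 fold change of 1.34. The called share was 66.7%, against 29.7% over all genes tested. *Ackr2* passed the low-count filter only through its IRF4-RV counts, and *Ackr4* only through its EV-RV counts. For them, being tested and being called are not independent, so that share and median are no fair contrast with all genes. *Ccr10* was counted 27 and 33 times in EV-RV cells versus 1753 and 1989 times in IRF4-RV cells. Its log2 difference of 5.84 (standard error 0.144; edgeR adjusted p = 1.14e-06) exceeded that of all 7 receptors tested in the group, and it ranged from 5.65 to 6.03 with each library left out. *Ackr2*, a scavenger of inflammatory chemokines (counts 2 and 3 against 13 and 15), was also called as higher. *Ackr4*, a scavenger of CCL19 and CCL21, the ligands of CCR7, was called as lower (18 and 20 against 7 and 9). At these counts the calls were unsteady. Those of *Ackr2* and *Ackr4* were lost without any 1 library (edgeR adjusted p from 0.146 to 0.269 and from 0.259 to 0.401). *Ackr3*, the other CXCL12 receptor, was counted 10 and 29 times in EV-RV cells versus 5 and 46 times in IRF4-RV cells, and its groups overlapped.

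Among 16 further receptors for lipids and related chemoattractants, 9 were tested, of which 4 were higher and 1 was lower in IRF4-RV cells. Their median log2 fold change was 0.53, and 55.6% were called, against 29.7% over all genes tested. The largest rises were those of *Gpr174*, a lysophosphatidylserine receptor (log2 fold change 2.84, standard error 0.404, edgeR adjusted p = 0.00212), *P2ry10*, another one (2.34, standard error 0.121, edgeR adjusted p = 1.66e-05), and *Lpar2*, a receptor for lysophosphatidic acid (2.12, standard error 0.0793, edgeR adjusted p = 2.84e-06). The value of *Gpr174*, counted 10 and 26 times in EV-RV cells, was 3.73 without EV-RV replicate 2 and 2.27 without EV-RV replicate 1, and it was called in both cases. *Lpar5*, another receptor for lysophosphatidic acid, fell by 0.53 (edgeR adjusted p = 0.0178). Of the other S1P receptors, *S1pr2*, which confines B cells to germinal centers, was at 4.92 ± 0.131 and 5.33 ± 0.474 CPM (SD, n = 2 each), with a 95% interval of the log2 fold change from -0.25 to 0.48. *S1pr4* made up 73.3% and 74.4% of the summed CPM per kilobase of the 5 S1P receptors in EV-RV cells versus 92.3% and 92.4% in IRF4-RV cells.

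**Figure D3:**
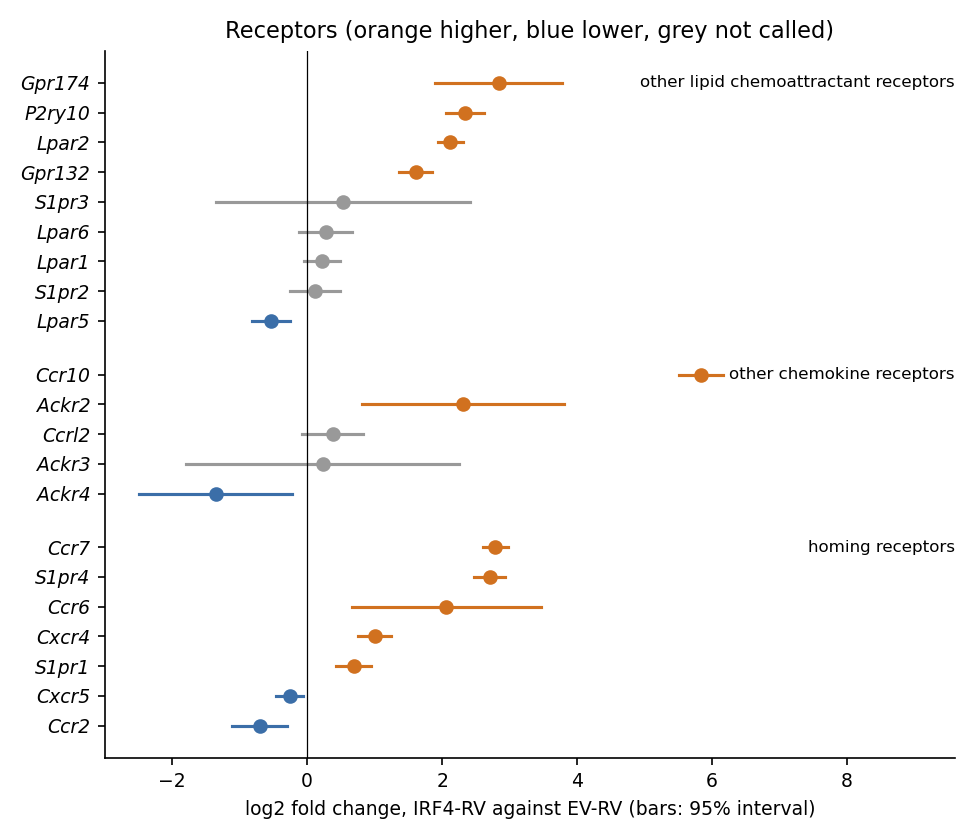
Log2 fold change of the receptors tested and reported, IRF4-RV against EV-RV, with its 95% interval as a bar, for the group of 10 and for the other chemokine and lipid receptors. *Ccr7* (2.79) and *S1pr4* (2.71) have narrow intervals, *Ccr6* and *Ackr3* wide ones, and *Ccr10* (5.84) lies farthest to the right.

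Transcripts of the ligands of these receptors were mostly at or near 0, and of 4 ligand genes tested 3 were called, all as higher. The called share was 75%, against 29.7% over all genes tested. *Ccl2* and *Ccl7* would not have passed the low-count filter on their EV-RV counts alone. For them, being tested and being called are not independent, so that this share is no fair contrast with all genes. Of 12 ligand genes, *Cxcl11*, *Ccl12*, *Ccl20* and *Ccl21a* had 0 counts in all 4 libraries, and *Cxcl13*, *Cxcl9* and *Ccl19* had at most 1. These include the ligand genes of CCR7, CXCR5 and CCR6, which were thus not detectable beside their receptors at this depth. *Cxcl10*, too low to be tested, had 0 counts in both EV-RV libraries against 7 and 12 in the IRF4-RV libraries. Relative to 3 counts per library it was at least 2.9-fold higher. *Ccl25*, the CCR9 ligand, was called as higher (log2 fold change 0.75, edgeR adjusted p = 0.0447), but not without EV-RV replicate 2 (edgeR adjusted p = 0.17). *Ccl2*, the CCR2 ligand, had 10 and 3 counts in EV-RV cells versus 12 and 136 in IRF4-RV cells, and *Ccl7* had 6 and 2 against 14 and 48. Both were called as higher (edgeR adjusted p = 0.0582 and 0.0351). Without IRF4-RV replicate 2 neither was (0.657 and 0.293), nor without EV-RV replicate 2 (0.195 and 0.169).

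*Cxcl12*, the ligand of CXCR4, was counted 210 and 408 times in EV-RV cells versus 191 and 1313 times in IRF4-RV cells. It was highest in IRF4-RV replicate 2, the groups overlapped, and the log2 fold change of 1.12 did not pass the cutoff (95% interval -0.51 to 2.76, edgeR adjusted p = 0.306). Like the stromal cell markers, it was higher in replicate 2 than in replicate 1 of each group. Replicate 2 exceeded replicate 1 by 2.06 times in EV-RV cells and by 6.39 times in IRF4-RV cells for *Cxcl12*, and by 1.79 to 2.71 and 3.52 to 6.2 times for the 6 stromal markers with over 3 counts in every library (*Col1a1*, *Col1a2*, *Col3a1*, *Pdgfra*, *Pdgfrb* and *Vcam1*). Of the other stromal markers, *Dcn* and *Lum* had at most 2 counts, and *Lepr* had 0 and 14 counts in EV-RV cells versus 1 and 0 in IRF4-RV cells, so that it was not highest in IRF4-RV replicate 2. *Ackr3*, *S1pr3* and *Plpp3* showed the same order, with 8.56, 7.29 and 12.3 times more in IRF4-RV replicate 2 than in replicate 1; *S1pr3* and *Plpp3* were singled out after their values were seen. The part of stromal cells in these levels was not tested. For the 7 receptors of the group, replicate 2 was at 0.862 to 3.7 times the level of replicate 1 in EV-RV cells, with *Ccr6* at 3.7 and the other receptors at up to 1.17 times. In IRF4-RV cells it was at 0.595 to 1.02 times, with *Ccr6* lowest, and *Ccr7* and *S1pr4* were slightly above 1 in both groups. Without IRF4-RV replicate 2, all but *Cxcr5* of the 7 receptors were still called.

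**Figure D4:**
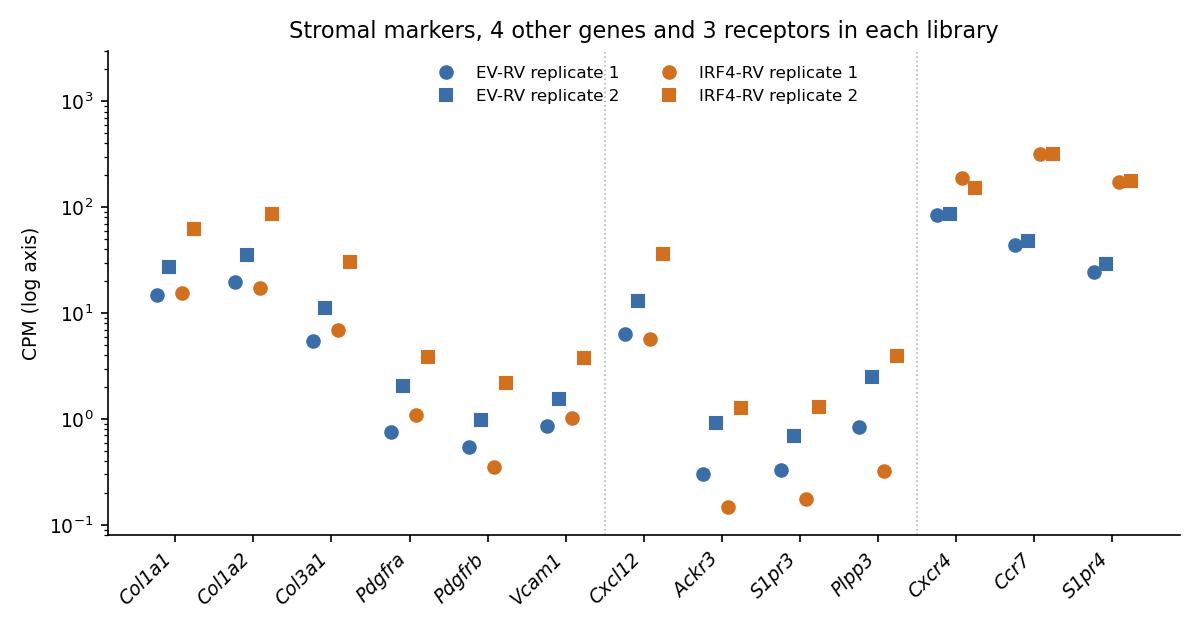
Level in CPM on a log axis of 6 stromal markers (left), of *Cxcl12*, *Ackr3*, *S1pr3* and *Plpp3* (middle), and of 3 receptors of the group (right) in each library, with colors for groups and shapes for replicates. The genes on the left and in the middle are 3.52 to 12.3 times higher in IRF4-RV replicate 2 than in replicate 1, and *Cxcr4*, *Ccr7* and *S1pr4* are at 0.817, 1.01 and 1.02 times.

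Chemokine and S1P receptors signal through G proteins and are switched off by RGS proteins, GRK kinases and arrestins. Of 25 such genes, 20 were tested, 6 were higher and 4 lower in IRF4-RV cells, with a median log2 fold change of 0.16. The called share was 50%, against 29.7% over all genes tested. *Rgs10*, which speeds the turn-off of Gαi, was counted 6 and 8 times in EV-RV cells versus 363 and 437 times in IRF4-RV cells (log2 fold change 5.69, standard error 0.233, edgeR adjusted p = 4.83e-06). *Rgs2* rose by 1.45 on the log2 scale, and *Grk2*, the kinase that marks active receptors for arrestin, by 0.81 (edgeR adjusted p = 1.85e-05 and 0.000232). *Rgs18* fell by 0.93, and both β-arrestin genes, *Arrb1* and *Arrb2*, fell, by 0.64 and 0.41 (edgeR adjusted p = 0.0187, 0.009 and 0.0211). Among the α subunits, *Gnai2*, the main Gαi gene of lymphocytes, was at 460 ± 12.4 CPM in EV-RV cells versus 594 ± 9.89 CPM in IRF4-RV cells (SD, n = 2 each; edgeR adjusted p = 0.00782).

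Of 22 genes of migration signaling and of receptor control, all were tested, and 6 were higher and 2 lower, with a median log2 fold change of 0.11. The called share was 36.4%, near the 29.7% over all genes tested. *Klf2*, a transcription factor known to drive *S1pr1* in lymphocytes, rose by 2.06 (standard error 0.115, edgeR adjusted p = 2.45e-05), and *Cd69*, whose product binds S1PR1 and takes it off the surface, rose by 1.09 (standard error 0.114, edgeR adjusted p = 0.000474). *Rap1a*, a small GTPase of integrin activation, rose by 1.12. *Pik3cg*, the PI3-kinase downstream of Gβγ, fell by 0.94 (edgeR adjusted p = 0.00167). *Rassf5*, a partner of Rap1, fell by 0.24 (edgeR adjusted p = 0.0568), a call lost with any 1 library left out. The Rac activator gene *Dock2* was at 139 ± 29.6 and 142 ± 17.5 CPM (SD, n = 2 each) and was not called.

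Of 14 genes for the metabolism of S1P and oxysterols, 8 were tested, 2 of which were higher and 1 lower, with a median log2 fold change of 0.32. The called share was 37.5%, near the 29.7% over all genes tested. *Sgpp2*, an S1P phosphatase, rose by 1.65 (standard error 0.25, edgeR adjusted p = 0.00284), and the related *Sgpp1* by 0.25 (edgeR adjusted p = 0.0614), a call lost in 5 settings, among them without IRF4-RV replicate 1 (edgeR adjusted p = 0.278). *Hsd11b1*, which acts on glucocorticoids and oxysterols, fell by 1.57 (standard error 0.199, edgeR adjusted p = 0.00126). *Ch25h*, which makes the precursor of the GPR183 ligand, had 0 counts in all libraries.

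**Figure D5:**
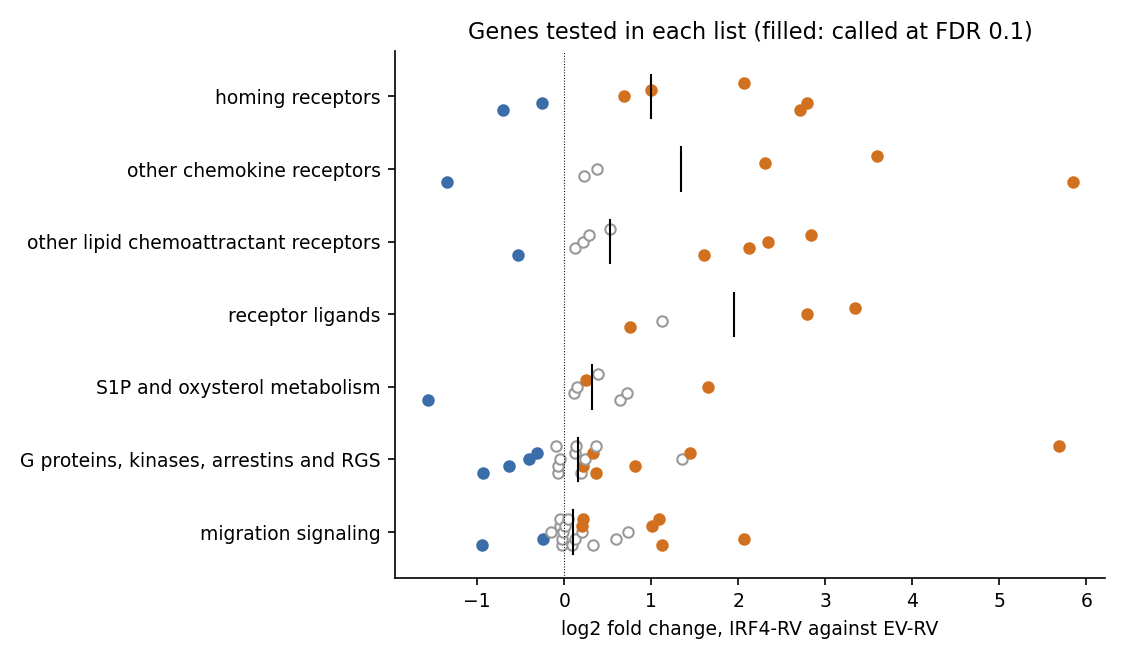
Log2 fold change of each gene tested, IRF4-RV against EV-RV, in the receptor group and in 6 lists of related genes, with filled points for genes called at an FDR of 0.1 and a black bar at the median. The medians are 1.0 for the receptor group, 0.16 for G proteins, kinases, arrestins and RGS, and 0.11 for migration signaling. Group and lists were chosen with earlier results of these data known.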

How the data were processed

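Bulk RNAseq counts of 2 EV-RV and 2 IRF4-RV libraries of T8 cells were analyzed, grouped by the sample titles. The growth and treatment texts of the labels name T11, whereas titles and tissue name T8, and the libraries were used as T8. The paper also reports RNAseq of T11 cells transduced in the same way. The study used STAR (version 2.4.0j) for alignment to GRCm38 and featureCounts for counting, per its methods. The authors deposited raw counts per Ensembl gene, without normalization. How strand and multiply aligned reads were handled is not given in the sources used here. Symbols, coordinates and exon lengths (union of all annotated exons) came from GENCODE M21 on GRCm38, which matched 52083 of 55359 identifiers. The study counted on a different annotation release, so that the exon lengths are approximate.

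Genes passing filterByExpr were tested with edgeR 4.0.16 (R 4.3.3), using TMM factors (0.964 to 1.05), the quasi-likelihood F test, no covariate and Benjamini-Hochberg adjustment over all 14637 genes tested, at the FDR of 0.1 used in the paper. Standard errors were computed from the F statistic, and 95% intervals from the same fit. Count intervals and floors of 3 counts cover counting error only. A gene can pass filterByExpr, the low-count filter, through the libraries of a single group. *Ccr6*, *Ackr2*, *Ccl2*, *Ccl7* and *Rgs10* would not have passed on their EV-RV counts alone, nor *Ackr4* on its IRF4-RV counts alone. Their calls are therefore not independent of the filter, which bears on the called shares of their lists. Replicates differed by more than sampling noise (chi-square per degree of freedom 14.1 and 13.1). The procedure was tested on simulated data.

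The members and lists were chosen with earlier results of these data known. All 10 receptors are named, besides *Irf4*, *Cxcl12* and *Ackr3*. From each other list, the text names up to 3 rising and 3 falling genes that passed the cutoff without overlap between groups, and further genes were named after their values were seen. Some listed genes are counted in the list totals but not reported here. As alternatives, DESeq2 1.42.0 was run, edgeR was run with its size factors or without scaling factors, the low-count filter was loosened and tightened, the replicate number was added as a block, an FDR of 0.05 was applied, and each library was left out in turn.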

Additional observations from a re-analysis of the deposited data

How the results depend on the processing

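Over 11 alternatives, 3347 to 6394 genes and 5 to 7 of the 10 receptors were called, and none of the receptors changed direction. *Cxcr4* (log2 fold change 0.83 to 1.15), *Ccr7* (2.70 to 2.85), *S1pr1* (0.60 to 0.76) and *S1pr4* (2.59 to 2.83) were called throughout. *Cxcr5* (-0.35 to -0.19) lost its call in 4 settings, an FDR of 0.05 (edgeR adjusted p = 0.0696) and 3 of the left-out libraries among them, *Ccr2* (-0.86 to -0.57) in 1 and *Ccr6* (1.39 to 3.26) in 2. With a minimum of 10 counts in every library *Ccr6* was not tested. With library size only, 1743 genes were higher and 2867 lower, the opposite balance of the 2340 and 2009 with TMM, with a median over all genes of -0.08 (log2), while the same 7 receptors kept their directions. DESeq2 called 7 receptors and 1 of the other chemokine receptors, *Ccr10*, and gave no adjusted p for *Ackr2* and *Ackr4*.

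With the replicate block, 6394 genes and 7 receptors were called. Same-numbered libraries deviated together across genes (Pearson's r 0.26; genes are not independent replicates), but the labels tie the numbers to no shared batch. The block changed no call among the 7 receptors. Of the stromal markers, none was called with the settings of the report, and 5 were higher with the block. When all genes with at least 1 count were tested, 5 were higher and 1 lower. Without IRF4-RV replicate 1, 6 were higher, and without IRF4-RV replicate 2 and EV-RV replicate 1, 2 and 1 were lower.

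The depth limits the receptors with at most 50 counts, and 2 libraries per group limit all. In other lists, 18 counts of called genes moved by more than 1.5 times, and the cause was not tested.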
